A study of Mus musculus with 3 samples.

Results

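The PDGF and Kit system, 7 genes for receptors and their ligands, was read across the 3 arrays of the series. They are the receptor genes Pdgfra, Pdgfrb and Kit, the PDGF ligand genes Pdgfa, Pdgfb and Pdgfc, and the Kit ligand gene Kitl. The rule names them as a receptor and ligand system and uses no measured value, although earlier results of these data were known when they were chosen. All 7 were found among the 18193 genes that the arrays name, 13974 of which were measured. A gene counts as measured when its brightest probe set, a group of short probes read as 1 signal, reached the floor of 25.6 intensity units on at least 1 array; the floor is the 40th percentile of all values. All 7 members were measured. They have 17 probe sets in all, of which 13 reached the floor on at least 1 array.

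The mouse embryonic stem cell line was A2.snail, labelled as making the repressor Snail when given doxycycline. It differentiated as embryoid bodies in serum-containing medium with DKK1, a secreted Wnt inhibitor that all 3 groups received. One group was Flk1- cells of a culture that received 0 ng/mL doxycycline (untreated Flk1-). The other groups were Flk1- and Flk1+ cells of cultures given 250 ng/mL doxycycline on day 2 (Snail Flk1- and Snail Flk1+), and all cells were collected on day 3. Flk1 is the VEGF receptor encoded by Kdr. Each group had 1 array, the labels name no animals or separate cultures, and so no difference below has a replicate check or a p-value. Untreated Flk1+ cells, and doxycycline given without the Snail gene, were not analysed here, so Snail cannot be told apart from doxycycline. A2.snail is 1 line, and "Snail" names a group here by its label. The median intensities of the arrays lay between 42.4 and 44.6. The Kdr probe set gave 10.5, 9.73 and 404 intensity units in untreated Flk1-, Snail Flk1- and Snail Flk1+ cells, which follows the sort labels, and the Snai1 probe set gave 29.1, 13.1 and 19.8, highest in the untreated array, and so did not show induction; whether this probe set can read the transgene is unknown here. In sorted bulk samples, fewer cells of a type and less RNA per cell cannot be told apart.

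PDGF ligands are secreted dimers that bind a pair of receptors and bring their kinase domains together. PDGFR-alpha binds PDGF-AA and PDGF-CC among others, and PDGFR-beta binds PDGF-BB. In the early embryo Pdgfra is known from paraxial mesoderm, primitive endoderm and mesenchyme, and Pdgfrb from mesenchyme and the cells that wrap vessels, while PDGF-B is known as a product of endothelium. Kit is a receptor of the same family whose ligand, encoded by Kitl, is made as a membrane-bound and a shed form; the pair is known from blood progenitors, germ cells and melanocytes. Pdgfra, Kit and Kdr lie side by side in the mouse genome.

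The receptors and ligands followed different patterns over the 3 groups. Both PDGF receptor genes were higher in the 2 Snail-induced arrays than in the untreated array, whether or not the cells carried Flk1. Kit and Kitl were highest in the Flk1+ array, and Pdgfa was lowest there. Pdgfb and Pdgfc stayed within 2-fold in every comparison. Differences are taken on the log2(value + 9.53) scale, where 9.53 is the 20th percentile of all values, and a fold is 2 to the power of that difference; if 1 of a pair of values was under the floor, the other value over the floor is given as "at least" that many fold. That bound is a ratio of intensities without the offset, so it is not on the scale of the other folds and can exceed the fold with the offset.

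**Figure D1:**
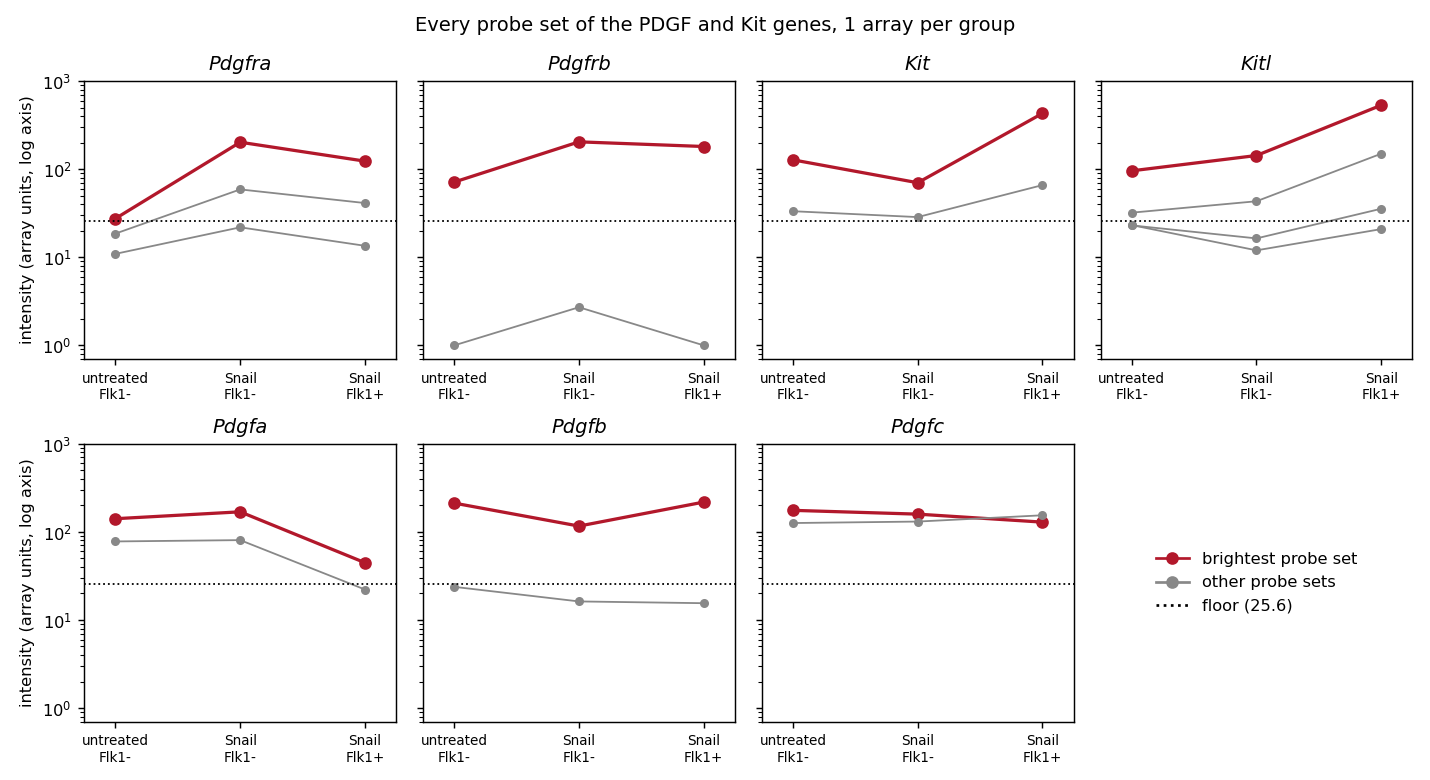
Intensity in array units (log axis) of every probe set of the 7 genes in the 3 arrays, with the brightest probe set of each gene in red, the others in grey and the floor dotted; lines join the values of 1 probe set and show no time course. Pdgfra stands at 27.5 in the untreated array and at 202 and 123 in the induced arrays, while Kit and Kitl reach 429.7 and 532 in the Flk1+ array.

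The sequence upstream of the members past 2-fold in any comparison is shown for 4 of these 5 genes, from the RefSeq promoter table. These are starts of genes whose levels differed. Windows on the chromosome of Pdgfrb, the gene not shown, were left out. Each run is the 250 bases before the most upstream start listed in RefSeq (build GRCm38.p6), printed 5′ to 3′ on the gene's own strand, with each CG dinucleotide in capitals. The windows are chr5:75152001-75152250 (plus strand) for Pdgfra, chr5:75574737-75574986 (plus strand) for Kit, chr10:100015571-100015820 (plus strand) for Kitl and chr5:138994945-138995194 (minus strand) for Pdgfa.
Pdgfra: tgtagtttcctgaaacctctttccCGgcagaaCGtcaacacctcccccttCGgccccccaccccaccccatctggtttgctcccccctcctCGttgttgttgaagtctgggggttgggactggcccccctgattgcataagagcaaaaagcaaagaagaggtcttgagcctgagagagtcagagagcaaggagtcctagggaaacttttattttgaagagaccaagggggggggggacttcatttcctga
Kit: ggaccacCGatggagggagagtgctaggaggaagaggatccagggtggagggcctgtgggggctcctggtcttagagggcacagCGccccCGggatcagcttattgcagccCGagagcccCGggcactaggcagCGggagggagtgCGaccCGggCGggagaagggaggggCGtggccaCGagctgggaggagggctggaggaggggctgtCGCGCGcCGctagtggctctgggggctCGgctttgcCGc
Kitl: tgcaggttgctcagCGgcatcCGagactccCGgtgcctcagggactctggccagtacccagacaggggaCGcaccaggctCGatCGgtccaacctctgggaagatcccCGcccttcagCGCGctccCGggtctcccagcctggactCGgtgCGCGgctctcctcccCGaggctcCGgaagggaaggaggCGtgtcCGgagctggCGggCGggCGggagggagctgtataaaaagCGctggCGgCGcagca
Pdgfa: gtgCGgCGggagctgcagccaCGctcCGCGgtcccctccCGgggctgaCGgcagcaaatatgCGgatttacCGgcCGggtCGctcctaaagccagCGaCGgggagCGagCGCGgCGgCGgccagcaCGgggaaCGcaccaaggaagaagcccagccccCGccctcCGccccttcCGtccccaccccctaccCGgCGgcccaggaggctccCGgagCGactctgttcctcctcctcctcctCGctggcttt

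The Pdgfra window holds 4 CG dinucleotides and is 54.4% G and C, close to the medians of 6 and 52.4% over the 32851 windows of the same length in the table. The Kit, Kitl and Pdgfa windows hold 17, 23 and 28 and are 70.8%, 69.2% and 72.4% G and C. Windows of 5 members were read, Pdgfc being the fifth with 3 CG dinucleotides. Pdgfrb was left out and so not searched, and Pdgfb had no window in the table. The letters CAGGTG, an E-box of the kind Snail proteins are known to bind, were searched on both strands, so as CACCTG too. They were in 0 of the windows of these 5 genes, against 17.2% of all windows. GATAA, searched on both strands as well (TTATC), was in 0 of them and in 22.6% of all windows. Neither motif contains the other, and a missing match says only that these letters are not in these windows.

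Pdgfra, the receptor gene for PDGF-A and PDGF-C, gave 27.5 intensity units in untreated Flk1- cells, 202 in Snail Flk1- cells and 123 in Snail Flk1+ cells. The untreated value lay just above the floor and both induced values were well above it. The gene was 5.72-fold higher in Snail Flk1- than in untreated Flk1- cells, and 18 of the 13974 measured genes had a larger difference in that direction. In Snail Flk1+ cells it was 3.59-fold higher than in untreated cells, and 1.59-fold lower than in Snail Flk1- cells. With the mean of all 3 probe sets the log2 difference between Snail Flk1+ and untreated cells was 0.96, short of 2-fold. In a second Pdgfra probe set the values were 18.6, 58.9 and 41.2, which puts Snail Flk1- cells at least 2.30-fold and Snail Flk1+ cells at least 1.61-fold above untreated cells. The last one gave 10.9, 21.9 and 13.5, under the floor on every array, and gives no order. Both probe sets that reached the floor were lowest in the untreated and highest in the Snail Flk1- array.

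Pdgfrb, the receptor gene for PDGF-B, gave 71.3 in untreated Flk1-, 204 in Snail Flk1- and 181 in Snail Flk1+ cells. It was 2.64-fold and 2.35-fold higher in the induced arrays than in the untreated one. The induced arrays themselves were 1.12-fold apart, with the lower value in Flk1+ cells. These values rest on 1 probe set, since the other gave 1, 2.71 and 1, far under the floor on every array, and with the mean over both the log2 differences from untreated cells were 0.81 and 0.62, no longer past 2-fold.

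Past 2-fold in Snail Flk1- against untreated Flk1- cells were 2 of the 7 members, both PDGF receptor genes and both higher, and 0 were lower. Among all measured genes the shares past 2-fold in that comparison were 3.00% higher and 2.06% lower. The median log2 difference of the members was 0.24, against 0.04 over all measured genes.

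None of the member PDGF ligand genes was past 2-fold with induction among Flk1- cells, where both receptor genes were. Pdgfa, whose product signals through PDGFR-alpha, gave 141 in untreated Flk1-, 169 in Snail Flk1- and 44.7 in Snail Flk1+ cells. It was 1.18-fold higher with induction among Flk1- cells and 3.29-fold lower in Flk1+ than in Flk1- cells of the induced cultures. With 77.8, 80.6 and 22.2 its second probe set was at least 3.15-fold lower in Snail Flk1+ than in Snail Flk1- cells, with a log2 difference of -1.51 on the offset scale. Both Pdgfa probe sets thus gave similar values in the 2 Flk1- arrays and a low one in the Flk1+ array, and 184 measured genes had a larger negative difference between the induced arrays than the brighter of them. The ligand gene and its receptor gene Pdgfra were both above the floor in Snail Flk1- cells, where each had its highest value.

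Pdgfb gave 212 in untreated Flk1-, 116 in Snail Flk1- and 218 in Snail Flk1+ cells. It was 1.76-fold lower in Snail Flk1- than in untreated cells and 1.81-fold higher in Snail Flk1+ than in Snail Flk1- cells, both short of 2-fold, and untreated and Flk1+ cells were 1.03-fold apart. Its other probe set gave 23.8, 16.2 and 15.5, under the floor on every array, and was not higher in Flk1+ than in Snail Flk1- cells.

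Pdgfc, which encodes a ligand that has to be cut before it can bind PDGFR-alpha, differed least between the arrays. Its brightest probe set gave 175, 159 and 129 in untreated Flk1-, Snail Flk1- and Snail Flk1+ cells, and its second gave 126, 131 and 154. The probe sets went opposite ways, so the Pdgfc values give no direction; the larger of these differences was 1.34-fold.

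Kit gave 128 in untreated Flk1-, 70.1 in Snail Flk1- and 429.7 in Snail Flk1+ cells. The Flk1+ array was the highest and the Snail Flk1- array the lowest. Kit was 1.72-fold lower in Snail Flk1- than in untreated cells, 5.52-fold higher in Snail Flk1+ than in Snail Flk1- cells, and 3.20-fold higher in Snail Flk1+ than in untreated cells. Between the induced arrays 91 measured genes had a larger difference in that direction. A second, dimmer Kit probe set gave 33.3, 28.6 and 65.9, in the same order, with 1.98-fold between the induced arrays. The size of the Kit difference therefore depends on the probe set, 5.52-fold or 1.98-fold, while the order of the arrays does not.

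Kitl gave 95.7 in untreated Flk1-, 143 in Snail Flk1- and 532 in Snail Flk1+ cells. It was 3.55-fold higher in Snail Flk1+ than in Snail Flk1- cells and 5.15-fold higher than in untreated cells, with 172 and 213 measured genes having larger differences. A second Kitl probe set gave 32.1, 43.2 and 149.8, which is 3.02-fold between the induced arrays, and another gave 23, 16.4 and 35.6, above the floor in Flk1+ cells alone and at least 1.39-fold higher there. The last gave 23.2, 12.0 and 20.9, under the floor throughout. All 3 Kitl probe sets that reached the floor were highest in Flk1+ cells. The smaller difference of Kitl between the 2 Flk1- arrays, 1.45-fold by the brightest probe set, was 1.27-fold by the second and -0.01 on the log2 scale with the mean of all 4, a mean that includes the values under the floor.

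Receptor and ligand of the Kit pair were thus both highest in the Flk1+ array, whereas of the PDGF-A pair the receptor gene was higher in both induced arrays and the ligand gene lower in the Flk1+ array. Between the induced arrays, 2 of 7 members (Kit and Kitl) were higher by 2-fold or more in Flk1+ cells, and 1 (Pdgfa) was lower by that size. Among all measured genes, 4.94% were higher and 4.94% lower by that size. The median log2 difference of the members was -0.17, against 0.00 over all measured genes. Between Snail Flk1+ and untreated Flk1- cells, 4 members were higher (Pdgfra, Pdgfrb, Kit and Kitl) and 1 lower (Pdgfa), against 8.24% and 6.47% of all measured genes, with medians of 1.23 and 0.01. With the mean of all probe sets only Kit and Kitl were higher by 2-fold here, and with the second brightest probe set only Kitl. This last comparison shares an array with each of the others and joins induction with the Flk1 gate.

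**Figure D2:**
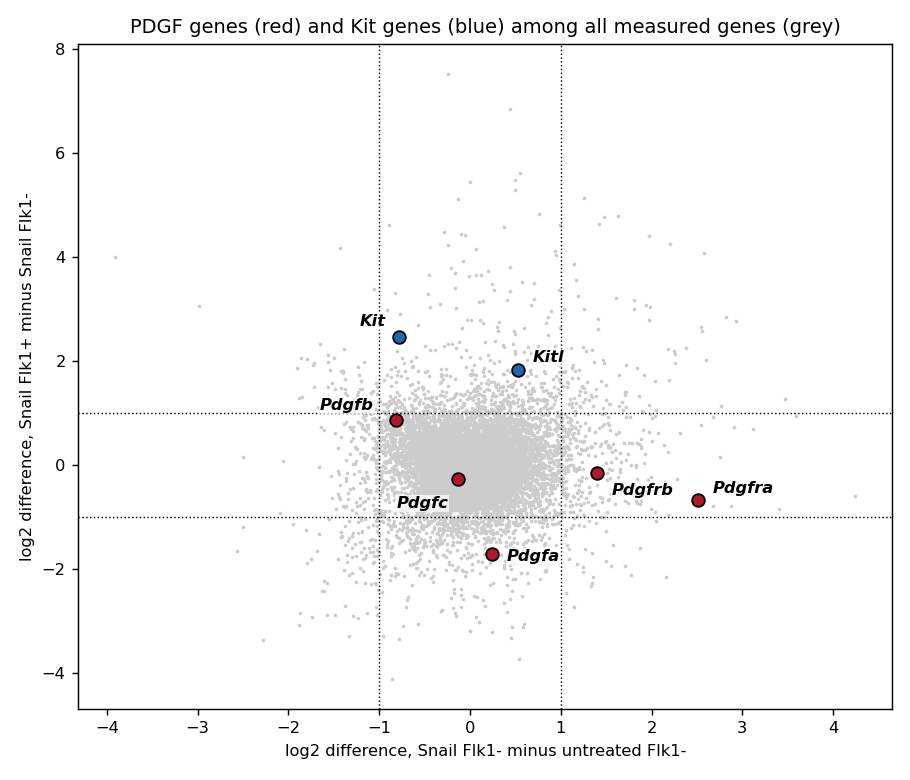
Log2 difference of Snail Flk1- minus untreated Flk1- cells (x axis) against that of Snail Flk1+ minus Snail Flk1- cells (y axis) for all measured genes (grey), the PDGF genes (red) and the Kit genes (blue), with 2-fold dotted; both axes use the Snail Flk1- array. Pdgfra and Pdgfrb lie to the right at 2.52 and 1.40, Kit and Kitl lie at the top at 2.46 and 1.83, and Pdgfa lies at the bottom at -1.72.

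Pdgfra, Kit and Kdr are neighbours on mouse chromosome 5 in the RefSeq gene order, and the 3 genes did not share a pattern. Pdgfra was highest in Snail Flk1- cells, where Kit was lowest and Kdr was under the floor. Kit and Kdr were both highest in Flk1+ cells, but Kit was above the floor on all 3 arrays and Kdr on the Flk1+ array alone. Kdr, at least 15.8-fold higher in Flk1+ than in either Flk1- array, is the gene of the sorted protein and describes the gate. Of the 3 genes with a probe set on either side, 5 of 6 were measured. The homeobox gene Gsx2, next to Pdgfra, gave 8.67, 11.7 and 1 and was under the floor throughout. Lnx1 gave 239.5, 198 and 250.0 and Chic2 gave 2103, 2633 and 3073, all within 2-fold. On the other side, Srd5a3 gave 183, 150.3 and 263 and Tmem165 gave 2244, 2298 and 3001. The circadian regulator gene Clock gave 119, 166 and 265, and its 2.14-fold difference between Snail Flk1+ and untreated cells was the only one past 2-fold among these neighbours; its 4 probe sets that reached the floor were all higher there, by 0.31 to 1.95 on the log2 scale. Pdgfrb likewise lies beside a gene of its own family, Csf1r, the receptor gene for CSF1. By its brightest probe set Csf1r gave 83.5, 75.8 and 109, with its lowest value in Snail Flk1- cells, where Pdgfrb had its highest. Its 3 probe sets above the floor disagreed in direction between the induced arrays, from -0.17 to 0.47 on the log2 scale.

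**Figure D3:**
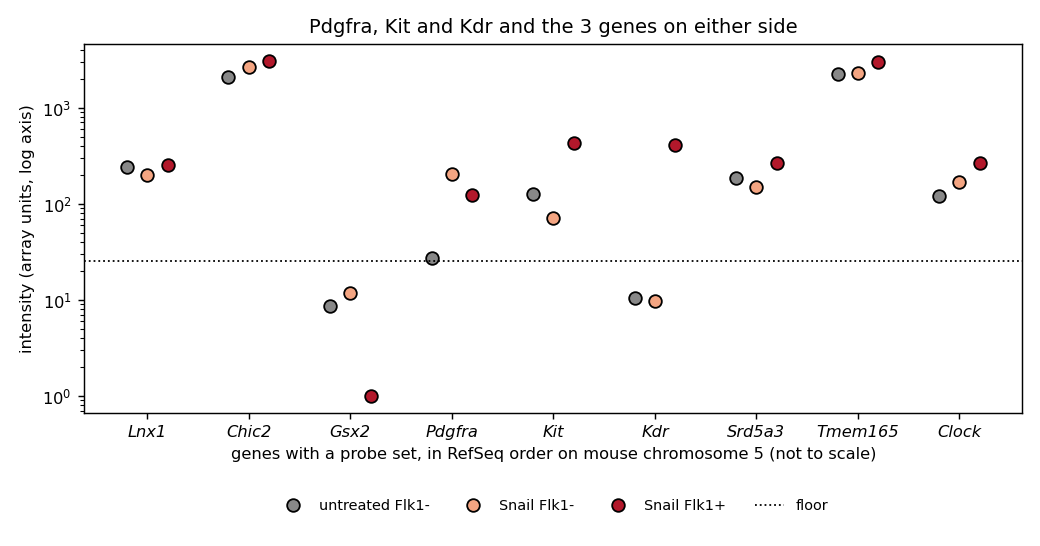
Intensity in array units (log axis) of the brightest probe set of Pdgfra, Kit, Kdr and the 3 genes with a probe set on either side, in chromosome order and not to scale, with 1 point per array and the floor dotted. Among the measured neighbours only Clock passes 2-fold, from 119 to 265, with Kdr at 10.5, 9.73 and 404 and Tmem165 at 2244, 2298 and 3001.

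Other genes of the pathway were taken from 4 lists with 56 genes, of which 53 had a probe set and 51 were measured. In Snail Flk1- against untreated Flk1- cells, 4 of the 51 were higher by 2-fold or more, 1 was lower, and the median log2 difference was 0.21. In Snail Flk1+ against Snail Flk1- cells, 11 were higher, 1 was lower, and the median was 0.43. In Snail Flk1+ against untreated cells, 18 were higher, 2 were lower, and the median was 0.76. Over all measured genes the shares higher and lower by 2-fold were 3.00% and 2.06% in the first of these comparisons, 4.94% and 4.94% in the second and 8.24% and 6.47% in the last, and the medians were 0.04, 0.00 and 0.01.

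Among the other receptors and ligands of the family, 5 of 7 genes were measured. Pdgfd, which encodes another ligand of PDGFR-beta, gave 7.88, 30.3 and 28.0, at least 1.19-fold and 1.10-fold higher in the induced arrays than in the untreated one, where it was under the floor. It was the only one of the 5 past 2-fold on the offset scale. Flt3, a receptor gene of blood progenitors, gave 1, 7.36 and 8.57, under the floor on every array. In Snail Flk1+ against Snail Flk1- cells 0 of the 5 were past 2-fold.

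Of the 24 measured genes for adaptors and kinases that act at these receptors, 21 had a higher value in Snail Flk1+ than in Snail Flk1- cells, 4 of them by at least 2-fold and 0 lower by that size. Of all measured genes 50.1% had a higher value in that comparison and 4.94% were past 2-fold in each direction, which is also the background of the counts in the following lists. Gab2, a docking protein that acts downstream of Kit, gave 75.5, 94.7 and 643 and was 6.27-fold higher in Flk1+ than in Flk1- induced cells. Its 3 probe sets above the floor agreed in direction but ranged from 0.46 to 2.65 on the log2 scale. The Src family kinase genes Fyn and Yes1 were 2.57-fold and 2.52-fold higher there, while Src itself gave 199, 201 and 191. With induction among Flk1- cells only Pik3r3, a regulatory subunit gene of PI 3-kinase, was past 2-fold, at 2.53-fold higher. Pik3r1, the main regulatory subunit gene, was 3.53-fold higher in Snail Flk1+ than in untreated cells, and the catalytic subunit gene Pik3cb was 2.06-fold lower. Stat3, a transcription factor that several cytokine receptors activate, gave 219.9, 432 and 1087, 4.78-fold between untreated and Flk1+ cells.

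Of the 12 genes for proteins that limit these receptors, 3 were at least 2-fold higher and 1 lower in Snail Flk1+ than in Snail Flk1- cells. Sh2b3, an adaptor that restrains Kit signalling, was 2.59-fold higher by its brightest probe set, while a second was at 0.00 on the log2 scale. Socs3, a feedback inhibitor of cytokine signalling, gave 274, 647 and 1412, and was 2.32-fold higher with induction and a further 2.16-fold higher in Flk1+ cells, with all 3 probe sets above the floor in that order. Grb10, an adaptor that dampens receptor kinases, was 2.01-fold higher in Flk1+ than in Flk1- induced cells. The receptor phosphatase gene Ptprj was at least 3.84-fold lower in Flk1+ cells, where it was under the floor, with a log2 difference of -1.65 on the offset scale.

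Of the 10 measured genes for proteins that process or bind the ligands, 4 were at least 2-fold higher and 0 lower in Snail Flk1+ than in Snail Flk1- cells. Furin, a protease that cuts PDGF precursors, gave 597, 183 and 961. It was 3.15-fold lower in Snail Flk1- than in untreated cells and 5.03-fold higher in Flk1+ than in Flk1- induced cells, on 1 probe set above the floor. It thus had its lowest value in Snail Flk1- cells, as Kit and Pdgfb did. Plat, the tissue plasminogen activator that can activate PDGF-C, was 2.03-fold higher with induction by its brighter probe set, while a second stood at 0.00 on the log2 scale. Nrp1, a co-receptor of VEGF that also binds PDGF, gave 12.6, 25.7 and 287 and was 8.43-fold higher in Flk1+ than in Flk1- induced cells. Mmp9, a protease that can release soluble Kit ligand, was 2.22-fold higher there, from 33.3 to 85.5. Sparc, a matrix protein that binds PDGF-B, was 2.22-fold higher there by its brightest probe set, although 1 of its 3 probe sets went the other way.

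**Figure D4:**
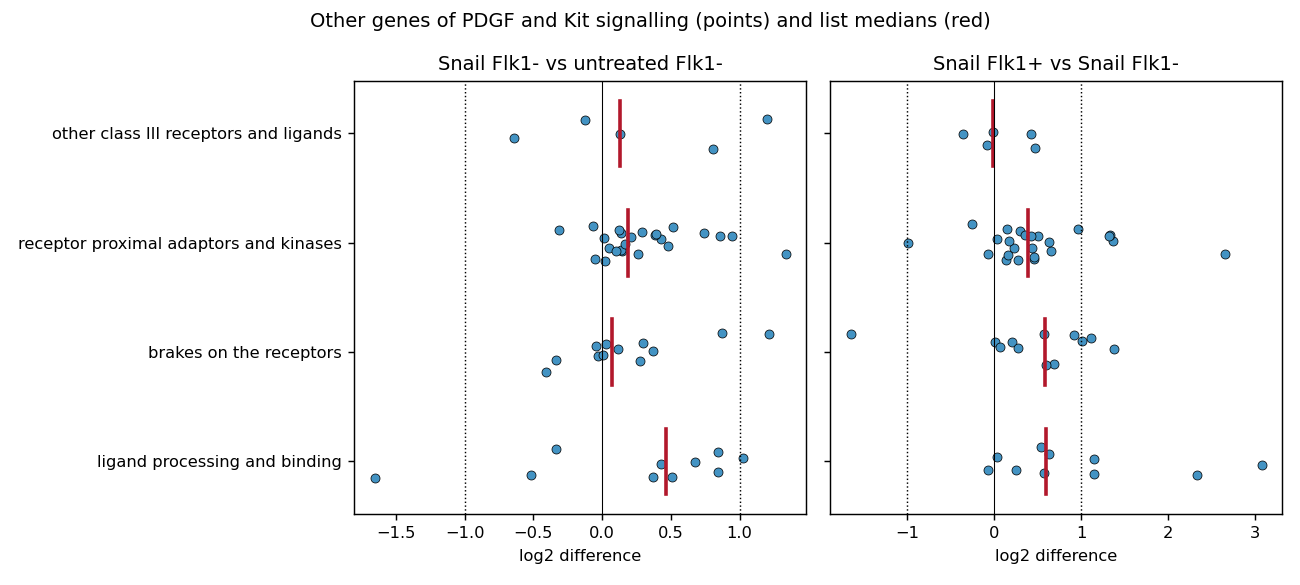
Log2 differences of the measured genes of 4 lists around PDGF and Kit signalling (blue points) with the list medians (red bars) and 2-fold dotted, for Snail Flk1- against untreated Flk1- cells (left) and Snail Flk1+ against Snail Flk1- cells (right). On the right, the medians of the adaptor, brake and ligand processing lists lie at 0.39, 0.58 and 0.60, and that of the other receptors and ligands lies at -0.02.

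Markers of the cell types in which these receptors are known were read beside the members. Of 14 paraxial mesoderm genes, 9 were measured, and Foxc1 alone was at least 2-fold higher in Snail Flk1- than in untreated cells (15.9, 90.2 and 681 over the 3 arrays). Msgn1, Meox1, Foxc2, Ripply2 and Uncx were under the floor on every array, Tbx6 gave 35.2, 32.6 and 49.8, and the list's median log2 difference was -0.09 in the comparison in which Pdgfra was 5.72-fold higher. The summed intensity of the list was 1098 in untreated Flk1-, 1099.6 in Snail Flk1- and 1515 in Snail Flk1+ cells. Foxc1 made up much of the last sum with 681. Between the induced arrays 5 of the 9 measured genes were higher in Flk1+ cells and 4 lower, among the lower Tcf15 with 571 and 376. Of 10 primitive endoderm genes 7 were measured. In Snail Flk1- against untreated cells only Dab2, an endocytic adaptor gene, was past 2-fold, from 168 to 404. Foxa2, Ttr and Afp were under the floor, and the summed intensity was 711, 973 and 3782, the last with Sox7 and Sox17, which endothelium shares, at 1291 and 1466.

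Of 10 mural cell genes, known companions of Pdgfrb, 7 were measured and 0 were past 2-fold in Snail Flk1- against untreated cells. In Snail Flk1+ against untreated cells the contractile gene Acta2 and the filament gene Des were 2.69-fold and 2.49-fold higher, and 0 were lower. Cspg4, Kcnj8 and Abcc9 were under the floor on every array and the sums were 2884, 3409.9 and 3601. Notch3 made up much of these sums with 1721, 2229 and 1977. In Snail Flk1- against untreated cells 5 of the 7 measured genes were higher and 2 lower, among the lower Tagln with 730 and 583. Of 8 feeder fibroblast genes 5 were measured, with sums of 409, 697 and 501, and Col3a1 and Dcn were at least 2-fold higher in Snail Flk1- than in untreated cells, Dcn from 111 to 276 and Col3a1 from under the floor to 122. Col1a2 was 1.19-fold higher there, while Thy1 gave 159 and 158 and Lum gave 33.3 and 22.1, the last under the floor. In Snail Flk1+ against Snail Flk1- cells 2 of the 5 were past 2-fold lower on the offset scale. These were Dcn, down to 58.6, and Lum, under the floor on both arrays. Col1a1, Postn and Fap were under the floor throughout. Of 6 neural crest genes with a probe set, 5 were measured; Ngfr alone was past 2-fold with induction, from 91.6 to 214, and the sums were 932, 1149.8 and 478. Foxd3, also a factor of pluripotent cells, made up much of these sums with 592, 656 and 99.8, and without it they were 339, 494 and 378. The part of these cell types in the differences of Pdgfra and Pdgfrb was not tested.

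For Kit and Kitl, all 11 genes of Flk1+ mesoderm and endothelium were at least 2-fold higher in Snail Flk1+ than in Snail Flk1- cells. Their summed intensities were 653, 1170.2 and 11249.9 in the 3 groups. Among them is Kdr, with 404 in Flk1+ cells, the gene of the sorted protein, so its difference describes the gate. Of 8 measured blood progenitor and mast cell genes 2 were higher and 1 lower. Gata2, a factor of blood progenitors and endothelium, gave 4.67, 11.3 and 1011. Its 2 probe sets above the floor were higher in Flk1+ than in Flk1- induced cells by 0.81 and 5.62 on the log2 scale. The leukocyte gene Ptprc gave 38.4, 7.46 and 60.6. Myb, a progenitor factor gene, gave 1179, 702 and 249.9. The mast cell protease gene Cpa3 was under the floor, and the sums were 1735, 1130.5 and 1912. Of 6 primordial germ cell genes 0 were higher in Flk1+ cells and 2, Prdm14 and Tfap2c, were lower, while Dppa3 gave 40.5, 54.9 and 23.0, the last under the floor. The sums of 1441, 1909 and 1728 were mostly Ddx4, with 872, 1269 and 1438, and without it they were 569.5, 641 and 290.1. Of 9 pluripotency genes 5 were lower there and 0 higher, with sums of 29359, 32433 and 16913, Nanog going from 1584 to 203. The part of these cell types in the Kit and Kitl differences was not tested.

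Genes most like each member were found as those with the smallest distance in the pair of log2 differences from untreated cells, among 13157 measured genes with a gene name that are no members. With 3 arrays this is a description of 2 numbers per gene. Nearest to Pdgfra was Ncam1, a neural cell adhesion gene, at a distance of 0.03, with 111, 678 and 413. All 5 Ncam1 probe sets above the floor were higher with induction among Flk1- cells, by 0.72 to 2.59 on the log2 scale. Of these, 4 were lower in Flk1+ than in Flk1- induced cells. Next came Hprt, an enzyme gene of purine salvage, with 352, 2301 and 1328 on 1 probe set, and Klhl29. Nearest to Pdgfrb were Zcchc24, Emilin3 and Unc45b, the first at a distance of 0.01 with 123, 339 and 299.9. The 2 Zcchc24 probe sets above the floor had opposite signs between the induced arrays, at -0.17 and 0.82 on the log2 scale. Kit had no neighbour closer than 0.28. Its nearest was Acvrl1, a receptor gene for BMP9 in endothelium, with 28.0, 15.3 and 94.3, although 1 of its 2 probe sets had the opposite sign among the Flk1- arrays; Pcgf5 and Itm2a followed. Nearest to Kitl were Gata6, a transcription factor gene of endoderm and heart mesoderm with 22.1, 35.6 and 152, then Ablim1 and the peptide processing enzyme gene Cpe. Nearest to Pdgfa were Actn2, Tfap2c and Ccl27a, and nearest to Pdgfb were Ctsg, Ccdc184 and Dnajb8. For Pdgfc, whose probe sets disagree, Pop1, Cd7 and Mrps28 lay at distances of 0.01.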

How the data were processed

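Gene expression was measured with Affymetrix arrays; per the labels' protocols, biotinylated cRNA was made from 2 ug of total RNA. The deposited values per probe set, from 0.5 to 18191, were taken to be linear intensities. For the summary method and scaling that the authors used, nothing is stated in the labels. Of 45037 probe sets, 34945 had 1 gene symbol and were used, with symbols updated by Entrez ID to RefSeq (GRCm38.p6), 932 had several and 9160 none. A gene's value is that of its brightest probe set by mean intensity. Values were used as deposited and turned into log2(value + 9.53); the floor was 25.6. With 1 array per group there was no test, and differences of at least 2-fold were counted. The number of arrays limits the precision. The steps were checked on arrays made nearly equal across the groups, with known folds planted in bright genes alone. That check does not cover values near the floor, probe sets that disagree or the real spread between arrays. The software was Python 3.11.15, numpy 2.4.6 and pandas 2.3.3.

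The members and lists were chosen with earlier results of these data known. Named genes were all members with every probe set, of each pathway list up to 3 genes past 2-fold with the largest difference in each direction per comparison, the 3 genes nearest in pattern and the chromosome neighbours. Other genes, among them Src, Flt3, Csf1r, Sparc and the markers given with values, were chosen after seeing their values. Alternatives were quantile normalisation, centring, the mean of all probe sets, and leaving out probe sets whose names end in _s_at or _x_at. Probe sets ending in _a_at, such as the brightest of Pdgfrb, Pdgfc and Kit, were not left out. Further alternatives were other offsets, floors and thresholds and, chosen after seeing the data, the second brightest probe set.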

Additional observations from a re-analysis of the deposited data

How the results depend on the processing

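The counts of members past 2-fold were the same, by the same genes, with quantile normalisation, centring, and no offset or a higher one. They were also the same with no floor or a higher one, and without probe sets whose names end in _s_at or _x_at. These settings could not change the difference of a member. The floor only decides which genes are measured, and all members stayed measured. No member has a brightest probe set with a name ending in _s_at or _x_at. With the mean of all probe sets, 1 member (Pdgfra) instead of 2 was higher in Snail Flk1- than in untreated cells and 2 (Kit and Kitl) instead of 4 in Snail Flk1+ than in untreated cells. At 1.5-fold, 2 members (Pdgfb and Kit) instead of 0 were lower in the first comparison and 2 (Pdgfra and Pdgfa) instead of 1 in the second. Pdgfb also joined the higher members of the second, making 3. At 3-fold, 1 member (Pdgfra) was higher in the first comparison, 3 were higher in the third, which lost Pdgfrb, and 0 were lower in the third. With the second brightest probe set, which left 5 members measured, 1 member was higher in each comparison, Pdgfra in the first and Kitl in the others. Of 147 log2 differences of single members, 131 moved by less than 1.5-fold, 16 moved more, and 0 of those past 2-fold changed sign. All 16 came with the mean of all probe sets or with the second brightest, the 2 settings that changed which member probe sets were read. The values without _s_at and _x_at probe sets could not move and are among the 131. Centring moved all members of a comparison by the same amount.

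Among all measured genes, 419 were higher and 288 lower in the first comparison, 691 and 690 in the second and 1151 and 904 in the third. Centring gave 317 and 404 in the first, 44.0% higher against 59.3%. In that comparison no offset gave 629 and 537, the higher offset 262 and 137, the mean of all probe sets 264 and 178, and the higher floor 325 and 170. The second brightest probe set, over 6499 genes, gave 172 and 107, then 315 and 251, then 512 and 344. At 1.5-fold there were 1198 and 1096, 1757 and 1637, and 2355 and 1979, and at 3-fold 116 and 33, 251 and 232, and 528 and 400. No paired analysis was possible because each group had 1 array. The untreated Pdgfra value near the floor limits its fold.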
